A study of Mus musculus with 10 samples.

Results

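Genes of the TGF-beta and BMP signalling pathway were compared between sorted luminal and basal cells of the mouse mammary gland. The 48 genes were taken from a list of ligands, receptors, SMAD proteins, Id target genes and inhibitors, to which the latent TGF-beta binding proteins belong, and all 48 were found by symbol among the 24594 genes of the count table. Of these, 45 had enough counts to be tested, whereas Bmp5, Smad9 and Grem1 did not. All libraries come from virgin glands of C57BL/6J mice labelled wild type, and the labels name no transgene, allele or agent for either group. Cells were freed from the gland with enzymes and sorted by flow cytometry on EpCAM and CD49f into luminal cells, which face the lumen of the ducts, and basal cells, which surround them and contract. For its sorts the study describes the removal of cells carrying TER-119, CD31 or CD45, which mark red blood cells, endothelium and leukocytes. Poly(A) RNA-seq libraries were made from 5 luminal and 5 basal samples, and their totals ranged from 13203146 to 17998165 counts. The labels give no age, while the study's methods give a single age range of adult mice for its experiments, and nothing in the labels says whether each library is a separate animal, so that p-values measure the spread between these samples only.

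TGF-beta family ligands are secreted dimers that bind a type II receptor, which then activates a type I receptor. Activated type I receptors phosphorylate SMAD proteins, SMAD2 and SMAD3 on the TGF-beta and activin branch and SMAD1, SMAD5 and SMAD9 on the BMP branch, and these enter the nucleus together with SMAD4. Secreted antagonists trap the ligands, inhibitory SMADs act back on the receptors, and latent TGF-beta binding proteins hold TGF-beta in the extracellular matrix, while in the mammary gland the pathway is known for restraining ductal growth.

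For all 10 libraries the sample title and the cell type label contradict each other, so the grouping follows the cell type label, with which the source name and the letter in the library description go together. All 9 luminal markers, among them Krt8 and Elf5, were higher in the libraries labelled luminal, and all 8 basal markers, among them Krt5 and Acta2, were higher in those labelled basal. The summed level of the luminal markers was 9010 to 13400 CPM (counts scaled to a common library depth, with TMM factors) in luminal and 960 to 1440 CPM in basal libraries, and that of the basal markers 41.8 to 119 and 13200 to 18300 CPM. Markers of other cell types were low but did not stand level between the groups. Their sums in luminal and basal libraries were 6.81 to 14.8 and 12.9 to 19.3 CPM for 8 endothelial genes, 27.9 to 117 and 61.6 to 112 CPM for 8 fibroblast genes, and 15.7 to 21.7 and 26.4 to 53.0 CPM for 8 immune genes. They were 0.61 to 1.59 and 3.94 to 8.87 CPM for 4 adipocyte genes, 4.74 to 18.3 and 0.545 to 2.28 CPM for 3 erythroid genes, and 94.8 to 269 and 35.3 to 48.7 CPM for 6 pericyte genes. Notch3 made up most of the luminal pericyte sum, while 4 of the 5 pericyte genes tested, Rgs5, Pdgfrb, Cspg4 and Kcnj8, were higher in basal libraries. Cd3e and Adipoq, which define T cells and adipocytes, had no counts in any library. The part of these cells in the results below was not tested, and in bulk samples fewer cells of a type and less RNA per cell cannot be told apart.

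Most of the pathway genes that differed were higher in basal cells. In edgeR's quasi-likelihood test with Benjamini-Hochberg adjustment over all 14609 genes tested, 25 of the 45 members (55.6%) passed an adjusted p of 0.05 with higher values in basal cells, where 31.2% of all genes tested were. Only 8 members (17.8%) were higher in luminal cells, where 33.6% of all genes were, and the other 12 did not pass the threshold. In total 33 members (73.3%) differed, beside 64.8% of all genes. The median log2 fold change, luminal minus basal, was -0.69 over the members and 0.05 over all genes tested. Members with a difference of at least 4-fold numbered 17 of the 45 in the basal and 5 of the 45 in the luminal direction. Beside them stood 1461 (10%) and 1236 (8.46%) of the 14609 genes tested, so at 4-fold the luminal part of the members was not below that of all genes. All 5 luminal values lay above or all lay below the 5 basal values for 30 members, of which 23 were higher in basal and 7 in luminal cells, beside 50.1% of all genes tested.

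**Figure D1:**
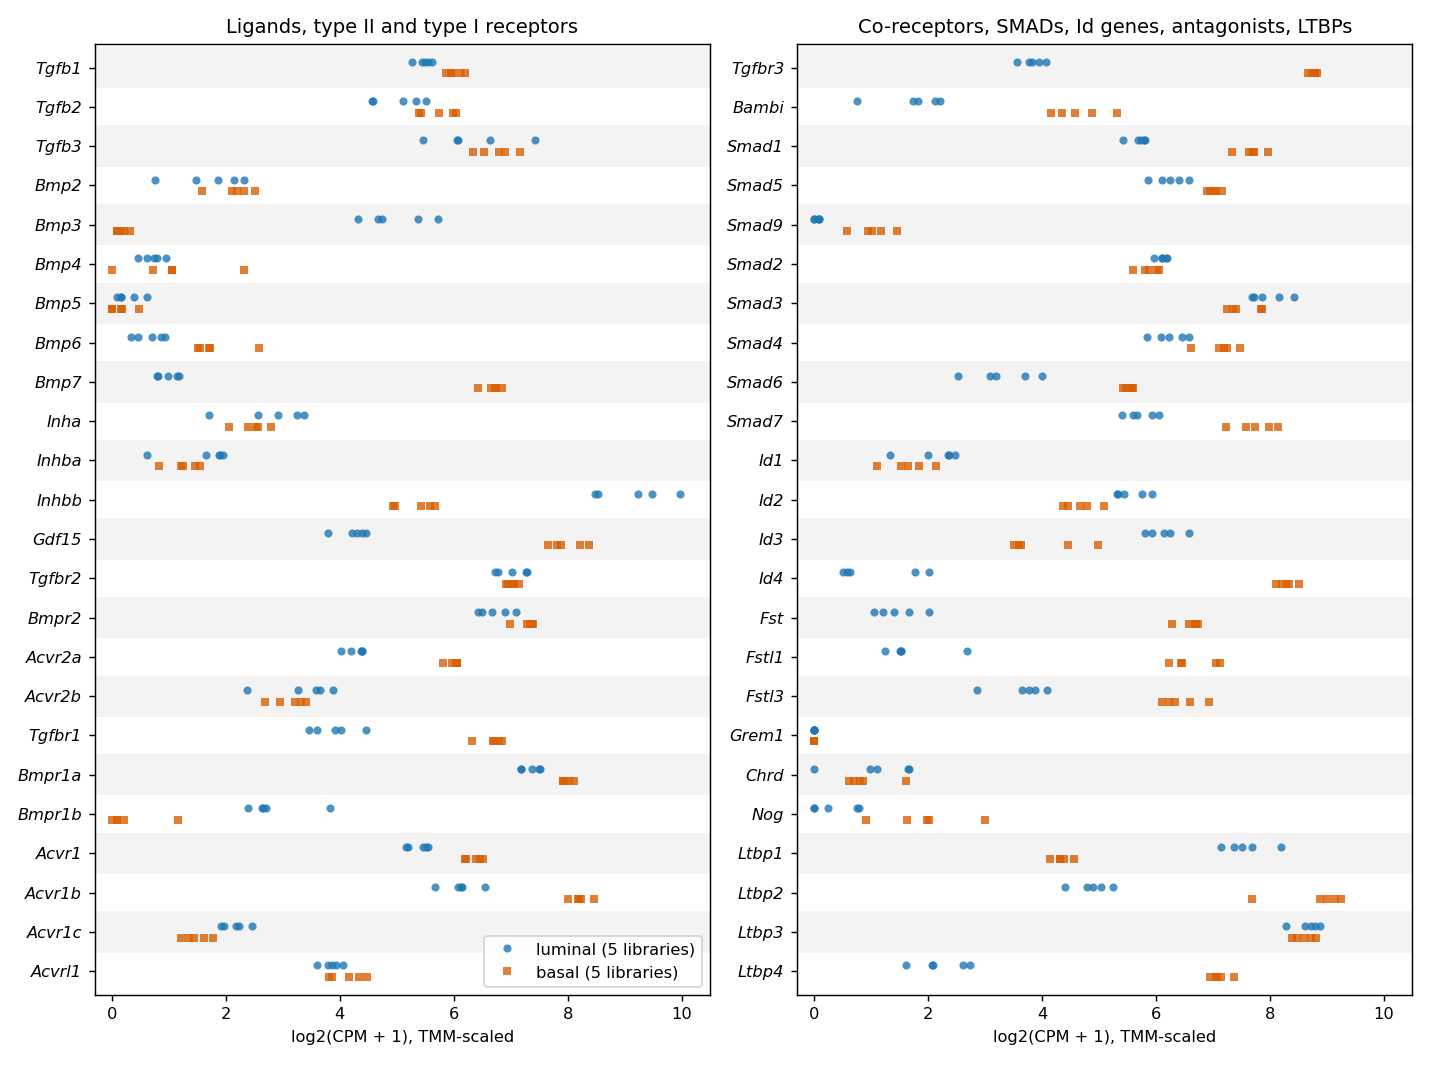
Level of each of the 48 genes as log2(CPM + 1) on TMM-scaled library totals, 1 point per library, with 5 luminal (blue circles) and 5 basal (orange squares) libraries. The groups stand apart for 30 of the 45 genes tested, with Bmp3, Inhbb, Ltbp1 and Id3 to the right in luminal and Bmp7, Tgfbr3, Id4, Fst, Fstl1 and Ltbp4 to the right in basal libraries.

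**Figure D2:**
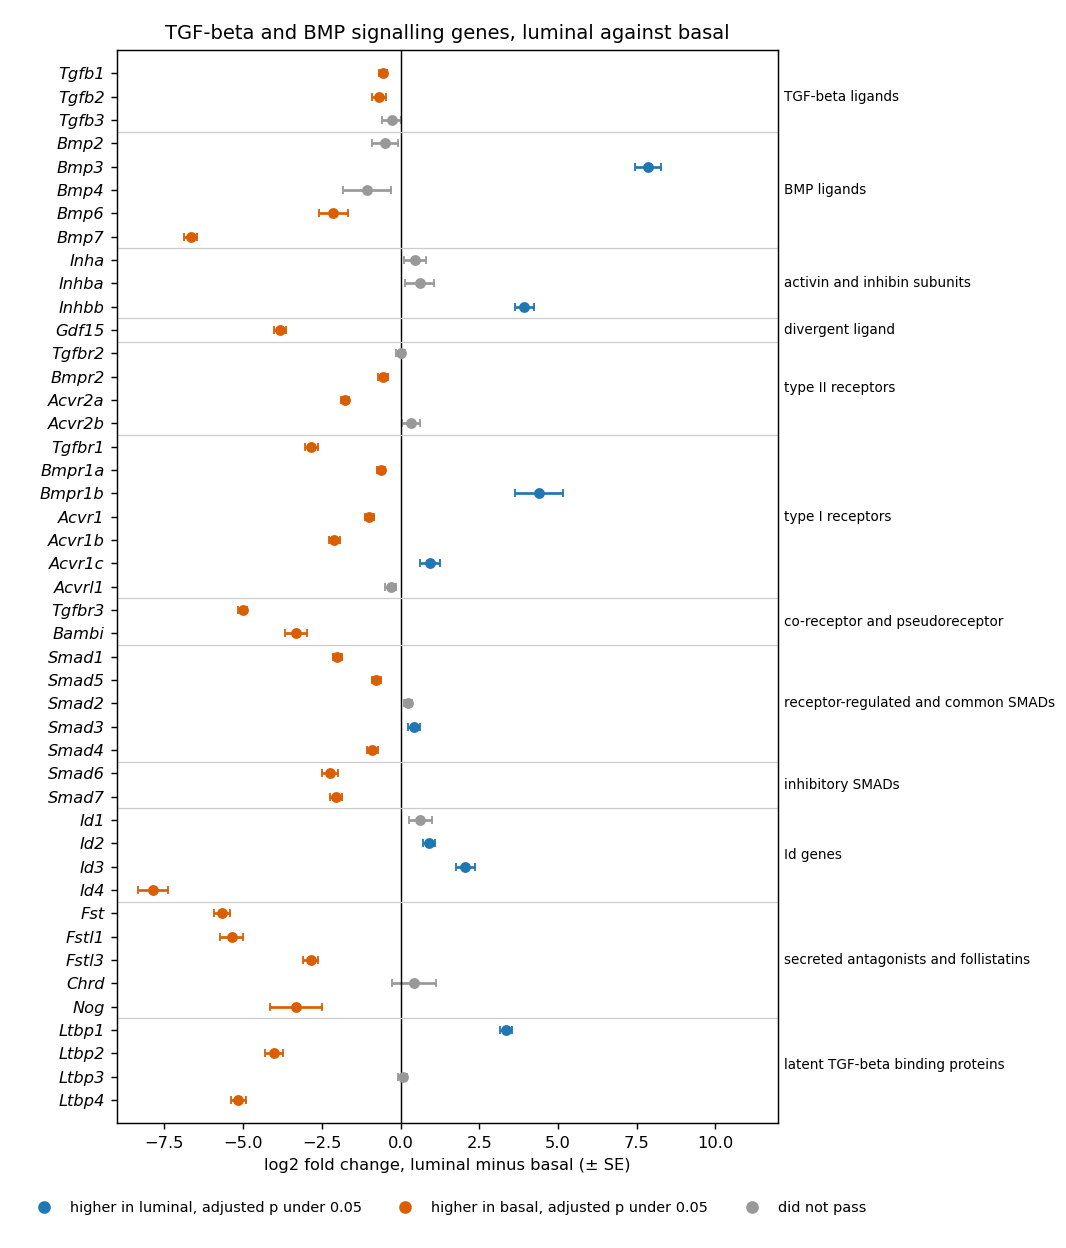
Log2 fold change of the 45 genes tested, luminal minus basal, with bars of 1 SE from edgeR, grouped by role from top to bottom. The 25 basal genes past the threshold of 0.05 (orange) include every co-receptor and inhibitory SMAD tested, and the 8 with a positive value (blue) are led by Bmp3 at 7.86.

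The Id genes were divided between the cell types. They encode helix-loop-helix proteins that bind other transcription factors and keep them off DNA, and Id1, Id2 and Id3 are classical targets of BMP signalling. Id4 had the most negative log2 fold change of the 45 members tested and Id3 and Id2 were luminal, so the sequences before their starts are shown here for comparison, each taken from RefSeq (GRCm38.p6, the assembly behind mm10). The windows cover the 250 bases before the RefSeq start, for Id2 at chr12:25096093-25096342 on the minus strand, for Id3 at chr4:136143572-136143821 on the plus strand and for Id4 at chr13:48260866-48261115 on the plus strand. A further sequence is a 30-base stretch around an inner transcript start of Smad6 at chr9:64022045-64022074 on the minus strand, of which 15 bases lie past the start, shown because it holds the SMAD palindrome. Capitals mark 2 motifs bound by SMAD proteins, the palindrome GTCTAGAC and the GC-rich motif GGCGCC, which read the same on both strands and do not overlap here.
Id2: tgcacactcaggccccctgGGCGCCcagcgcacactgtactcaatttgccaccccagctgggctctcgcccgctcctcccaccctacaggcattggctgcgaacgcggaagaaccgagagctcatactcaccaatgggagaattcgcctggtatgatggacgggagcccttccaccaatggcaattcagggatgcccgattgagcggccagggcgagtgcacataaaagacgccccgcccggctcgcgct
Id3: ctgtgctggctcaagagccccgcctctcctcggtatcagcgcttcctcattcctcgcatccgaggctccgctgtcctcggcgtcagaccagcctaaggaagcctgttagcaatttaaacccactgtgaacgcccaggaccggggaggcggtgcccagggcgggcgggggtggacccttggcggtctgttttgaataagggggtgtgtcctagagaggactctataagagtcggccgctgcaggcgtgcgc
Id4: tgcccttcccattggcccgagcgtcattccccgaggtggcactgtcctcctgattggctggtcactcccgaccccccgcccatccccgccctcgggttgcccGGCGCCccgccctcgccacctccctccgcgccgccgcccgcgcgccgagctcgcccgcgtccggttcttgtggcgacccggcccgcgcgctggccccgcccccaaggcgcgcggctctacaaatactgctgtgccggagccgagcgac
Smad6: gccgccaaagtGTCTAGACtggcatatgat
GGCGCC began 231 bases before the start of Id2 and 148 bases before that of Id4, and neither motif was found in the window of Id3. A stretch shortly after the start was found in a GENCODE transcript of the same gene for Id2, Id3 and Smad6, but not for Id4. The Id4 position therefore rests on the RefSeq start alone. GTCTAGAC spans the transcript start of Smad6 used here, beginning 4 bases before it, and that start lies inside the annotated gene, downstream of its outermost end. The windows of Id2 and Id3 each held 62.8% G and C and that of Id4 75.6%, where the median over all promoters was 52.4%. In windows from 250 bases before to 50 bases after the start, GGCGCC was found in 13 of 45 promoters belonging to the 35 members with an entry (28.9%) and in 11.9% of 32851 promoters in all. GTCTAGAC was found in 1 of the 45 (2.22%), that of Smad6, and in 0.213% of all promoters. Of the 11 genes with GGCGCC, Acvr1b, Bmpr1a, Bmpr2, Id4, Ltbp4, Smad5 and Tgfbr1 were higher in basal cells and Id2 in luminal cells. Chrd did not pass the threshold, and Smad9 and Grem1 had too few counts for the main test. Among all 45 members tested, 55.6% were higher in basal and 17.8% in luminal cells, beside 31.2% and 33.6% of all genes tested. A match is a description of the sequence and was tested for nothing else.

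Id4 (Entrez 15904, chromosome 13, 48261116 to 48266028) stood at 0.500, 0.421, 0.551, 3.05 and 2.41 CPM in luminal replicates 1 to 5 and at 364, 297, 274, 322 and 309.5 CPM in basal replicates 1 to 5. Every basal library was far above the highest luminal one. The log2 fold change was -7.87 (SE 0.47, edgeR adjusted p 4.57e-09). Luminal replicates 4 and 5 were above the other luminal libraries, with 40 and 38 counts against 8 or 9. The basal markers Krt5 (18.1 and 15.8 CPM), Krt14 (11.6 and 26.8 CPM) and Krt17 (49.96 and 40.4 CPM) were also highest in these luminal libraries. The other basal markers, Trp63, Acta2, Myh11, Cnn1 and Oxtr, were lower in luminal replicate 4 than in luminal replicate 2. In luminal replicate 5, however, Trp63 (2.03 CPM), Acta2 (22.25 CPM), Myh11 (3.99 CPM) and Oxtr (6.53 CPM) had their highest luminal values. Cnn1 was at 1.39 CPM there, below its 1.89 CPM in luminal replicate 2. The part of basal cells in these Id4 values was not tested. Id3 (Entrez 15903, chromosome 4, 136143822 to 136145392) was at 54.7, 94.5, 59.9, 69.6 and 74.9 CPM in luminal and 30.6, 10.4, 11.1, 11.4 and 21.02 CPM in basal libraries. The groups did not overlap, basal replicate 1 being the highest of its group, and the log2 fold change was 2.06 (SE 0.29, edgeR adjusted p 2.48e-05). Id2 was at 60.1, 38.7, 42.3, 39.4 and 53.3 CPM in luminal and 33.2, 24.5, 19.7, 21.1 and 26.8 CPM in basal libraries. It was higher in every luminal than in any basal library, by 0.90 on the log2 scale (SE 0.18, edgeR adjusted p 0.000554). Id1 was counted at a low level in both cell types, at 4.18, 2.999, 4.53, 1.52 and 4.12 CPM in luminal and 1.87, 2.59, 1.16, 2.12 and 3.41 CPM in basal libraries, and these values overlapped. Its log2 fold change of 0.63 (SE 0.38) fell short of the threshold (edgeR adjusted p 0.154), although it passed without luminal replicate 4, the lowest luminal library (0.82, adjusted p 0.0476).

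Shares within a family do not depend on how libraries are scaled against each other. Levels were divided by the length of the merged exons, since only values per length can be compared between genes, and each gene was expressed as a percentage of its family in the same library. Among the Id genes, Id3 held 63.3% ± 8.30 (SD, n = 5) of the family in luminal libraries and 8.82% ± 3.27 (SD, n = 5) in basal libraries, and Id2 held 31.2% ± 7.11 (SD, n = 5) and 9.91% ± 0.907 (SD, n = 5). Id4 held 0.589% ± 0.543 (SD, n = 5) in luminal and 79.4% ± 3.95 (SD, n = 5) in basal libraries. The Id family of luminal cells was thus mostly Id3 and Id2 transcripts and that of basal cells mostly Id4 transcripts. The same was seen among BMP ligands, where Bmp3 held 73.7% ± 9.82 (SD, n = 5) in luminal and 0.0633% ± 0.0355 (SD, n = 5) in basal libraries and Bmp7 4.58% ± 1.72 (SD, n = 5) and 91.6% ± 2.82 (SD, n = 5). These shares are a description and were not tested.

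**Figure D3:**
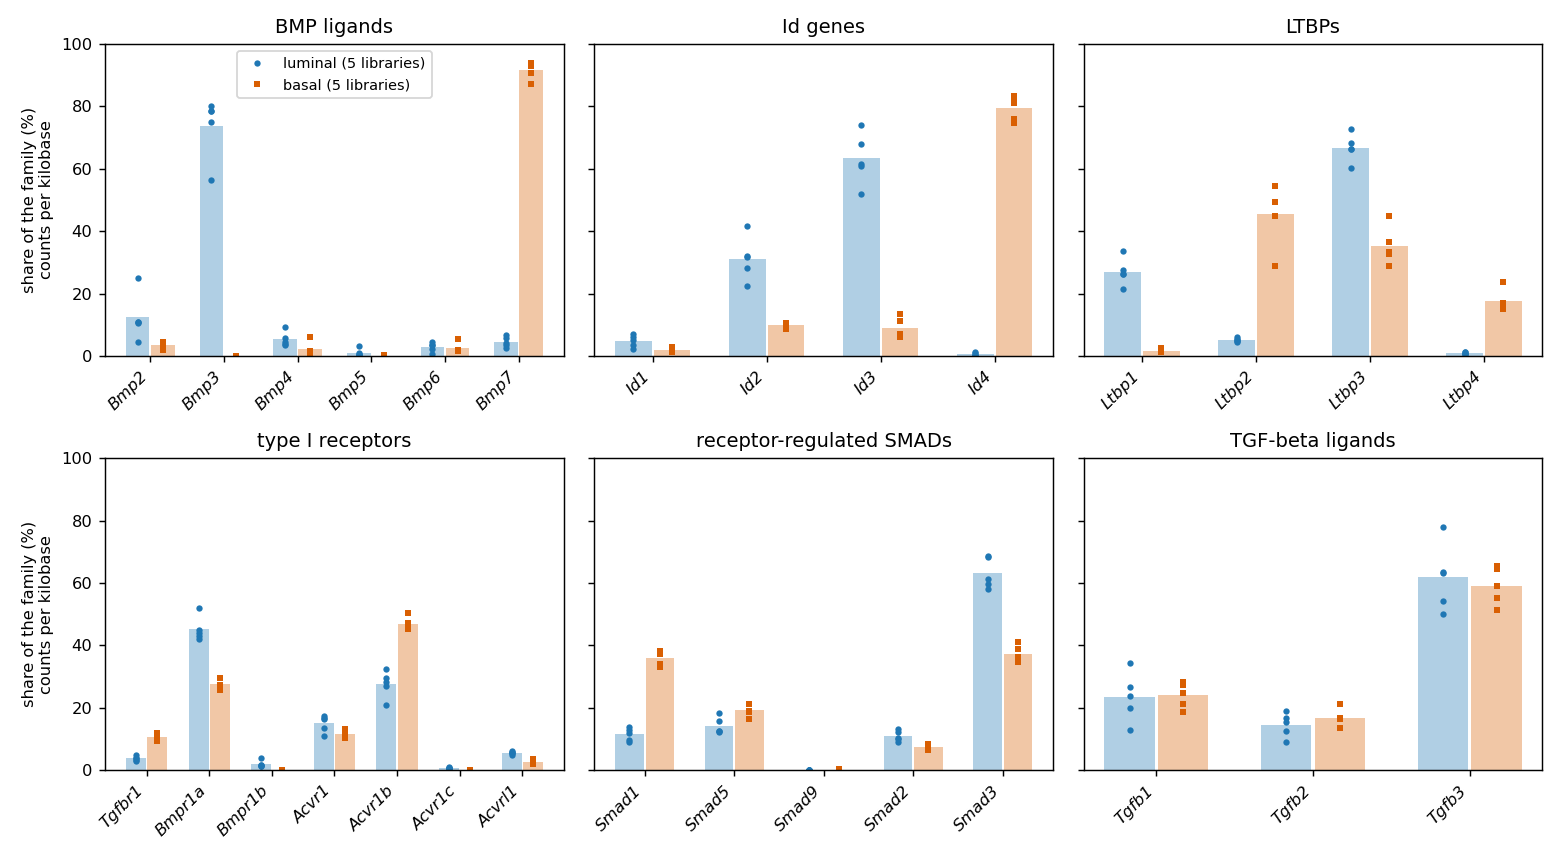
Share of each gene in its family (%), from counts per kilobase of merged exon within a library. Bars are means over 5 libraries and points are single libraries, with luminal in blue and basal in orange. Bmp3 gives way to Bmp7, Id3 and Id2 to Id4, and Ltbp1 to Ltbp2 and Ltbp4 between luminal and basal cells, whereas the 3 TGF-beta ligands keep overlapping shares.

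Among the 3 TGF-beta genes, 2 were higher in basal cells and by small margins, beside 31.2% of all genes tested. Tgfb1 was at 42.5, 47.8, 37.5, 43.9 and 45.9 CPM in luminal and 72.4, 61.6, 56.96, 60.95 and 68.3 CPM in basal libraries. These ranges did not overlap, and the log2 fold change was -0.56 (SE 0.13, edgeR adjusted p 0.00133). Tgfb2 was at 33.7, 39.3, 22.9, 22.6 and 44.8 CPM in luminal and 64.7, 62.8, 41.9, 40.8 and 52.6 CPM in basal libraries. Luminal replicate 5 lay above basal replicates 3 and 4, so the groups overlapped, at a log2 fold change of -0.69 (SE 0.21, edgeR adjusted p 0.0117), and the call was lost when libraries were scaled by their totals only (adjusted p 0.0511). Tgfb3 was at 171, 65.6, 66.7, 42.9 and 98.4 CPM in luminal and 91.6, 142, 118, 79.5 and 109.5 CPM in basal libraries. Luminal replicate 1 had the highest Tgfb3 value of all 10 libraries, and the log2 fold change of -0.28 (SE 0.30) fell short of the threshold (edgeR adjusted p 0.423). Without that library it was -0.65 (adjusted p 0.0219). Per kilobase, Tgfb3 was the most abundant of the 3, with 61.8% ± 10.7 (SD, n = 5) of their sum in luminal and 59.1% ± 6.00 (SD, n = 5) in basal libraries, and 12.4% of its exon bases are shared with genes on the opposite strand, whose reads could not be told apart unless counting used strand.

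The BMP genes split between the cell types. Bmp3, an atypical member that opposes the action of other BMPs, was luminal, and Bmp7 and Bmp6, members of the classical BMP group, were basal. Bmp3 (Entrez 110075, chromosome 5, 98854415 to 98884053) was at 18.9, 51.98, 40.3, 24.3 and 25.7 CPM in luminal libraries and had 1 to 4 counts in each basal library, or 0.0623, 0.0682, 0.155, 0.250 and 0.120 CPM. The log2 fold change of 7.86 (SE 0.42, edgeR adjusted p 1.53e-09) was the largest positive one of the 45 members and rests on these few basal counts. Bmp7 (Entrez 12162, chromosome 2, 172868012 to 172940321) was at 0.750, 1.21, 0.735, 0.992 and 1.27 CPM in luminal and 85.4, 114, 105, 100.2 and 106 CPM in basal libraries. Each basal library exceeded every luminal one, and the log2 fold change was -6.67 (SE 0.20, edgeR adjusted p 2.75e-11). Bmp6 was low in both, at 0.812, 0.263, 0.919, 0.381 and 0.634 CPM in luminal and 4.98, 2.32, 1.93, 2.25 and 1.86 CPM in basal libraries. Without overlap between the groups, Bmp6 was higher in basal cells, with a log2 fold change of -2.14 (SE 0.47, edgeR adjusted p 0.00106) and basal replicate 1 well above the rest. Bmp2, at 3.998, 3.42, 2.63, 0.686 and 1.77 CPM in luminal and 3.30, 3.61, 2.01, 4.68 and 4.01 CPM in basal libraries, did not pass the threshold (-0.49, SE 0.42, edgeR adjusted p 0.320), nor did Bmp4 (-1.05, SE 0.76, edgeR adjusted p 0.239). Bmp4 had 6 to 15 counts in luminal libraries and 0 to 16 in basal ones, except for basal replicate 4 with 64. Without that library the Bmp4 log2 fold change was -0.11 (adjusted p 0.906). Bmp5 had at most 7 counts in a library and did not pass the filter of the main test.

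Inhbb, which encodes the beta B subunit of activin B and inhibin B, was the most abundant member per length in luminal cells. It stood at 142 ± 62.7 CPM per kilobase of merged exon there and at 9.34 ± 2.23 CPM per kilobase in basal cells. Inhbb (Entrez 16324, chromosome 1, 119415463 to 119422248) was at 998, 355, 598, 369 and 708 CPM in luminal and 30.1, 29.4, 42.1, 49.7 and 47.2 CPM in basal libraries. Luminal libraries differed widely among themselves, yet the lowest was above every basal library, and the log2 fold change was 3.93 (SE 0.30, edgeR adjusted p 5.48e-08). The alpha subunit gene Inha, whose product makes inhibins when joined to a beta subunit, was at 2.25, 8.47, 9.38, 6.56 and 4.94 CPM in luminal and 5.92, 4.91, 4.25, 4.75 and 3.17 CPM in basal libraries. Luminal replicate 1 was the lowest of the 10, so the groups overlapped and the difference of 0.46 (SE 0.34) did not pass (edgeR adjusted p 0.254), whereas it did without that library (0.69, adjusted p 0.0408). Inhba, the beta A subunit gene, was at 2.75, 0.526, 2.88, 2.67 and 2.15 CPM in luminal and 1.31, 1.91, 1.39, 1.75 and 0.778 CPM in basal libraries, and it did not pass either (log2 fold change 0.62, SE 0.46, edgeR adjusted p 0.254). Of the 2 beta subunit genes, Inhbb held 99.7% ± 0.147 (SD, n = 5) of their sum per kilobase in luminal and 97.5% ± 1.11 (SD, n = 5) in basal libraries.

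Gdf15, a divergent ligand induced by cell stress that signals through a receptor outside the SMAD pathway, was basal. It was at 17.6, 18.7, 21.1, 20.1 and 12.9 CPM in luminal and 329, 199.9, 223, 298 and 236 CPM in basal libraries. The groups were far apart, with a log2 fold change of -3.83 (SE 0.19, edgeR adjusted p 7.65e-10). Of 10 genes that respond to tissue dissociation, 8 were also higher in basal and 2, Hspa1a and Hspa1b, in luminal cells, beside 31.2% and 33.6% of all genes tested, with summed levels of 4630 to 6550 CPM in luminal and 4530 to 8940 CPM in basal libraries. Their part in the Gdf15 difference was not tested.

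Of the TGF-beta receptors, Tgfbr1 and the co-receptor Tgfbr3 were basal, whereas Tgfbr2 did not pass the threshold. Tgfbr2, the type II receptor that binds TGF-beta, stood at 152, 128, 109, 104 and 156 CPM in luminal and 119.7, 124, 131, 140.4 and 133 CPM in basal libraries. The luminal values spread to either side of the basal ones, and the log2 fold change was 0.01 (SE 0.14, edgeR adjusted p 0.976). Tgfbr1, the type I receptor it activates (Entrez 21812, chromosome 4, 47353222 to 47414926), was at 20.99, 10.1, 11.2, 14.1 and 15.2 CPM in luminal and 103, 102, 114, 79.2 and 109 CPM in basal libraries. The lowest basal library was well above the highest luminal one, for a log2 fold change of -2.83 (SE 0.20, edgeR adjusted p 2.32e-08). Tgfbr3, which encodes the co-receptor betaglycan that presents TGF-beta to the type II receptor (Entrez 21814, chromosome 5, 107106567 to 107289629), was at 15.8, 13.1, 12.6, 14.3 and 10.8 CPM in luminal and 441, 405, 439, 426 and 454 CPM in basal libraries. Its basal values lay within a narrow range, and the log2 fold change of -5.02 (SE 0.15, edgeR adjusted p 2.75e-11) had the same adjusted p as that of Bmp7, the smallest among the members.

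The activin and BMP receptors held further basal members. Acvr2a, an activin type II receptor, was at 19.6, 15.3, 17.3, 19.9 and 19.96 CPM in luminal and 65.7, 64.6, 65.5, 55.5 and 61.3 CPM in basal libraries. Its groups stood apart (-1.76, SE 0.13, edgeR adjusted p 4.19e-08), and 7.84% of its exon bases are shared with Orc4 on the opposite strand. The type I receptor of activins, Acvr1b, was at 92.7, 69.9, 66.5, 49.96 and 68.6 CPM in luminal and 300.0, 351, 293, 256 and 291 CPM in basal libraries. No luminal library of Acvr1b came near a basal one, with a log2 fold change of -2.10 (SE 0.17, edgeR adjusted p 7.11e-08). The BMP type I receptors Bmpr1a and Acvr1 were basal by smaller margins. Bmpr1a was at 143 to 181 CPM in luminal and 240.1 to 274 CPM in basal libraries, and Acvr1 at 34.9 to 46.01 CPM in luminal and 72.7 to 90.9 CPM in basal libraries. Their log2 fold changes were -0.63 (SE 0.12, edgeR adjusted p 0.000462) and -0.99 (SE 0.13, edgeR adjusted p 1.56e-05), and neither overlapped between the groups. Bmpr2, the BMP type II receptor, was at 136, 88.8, 84.7, 101 and 118 CPM in luminal and 165, 156, 168, 125 and 161 CPM in basal libraries. Luminal replicate 1 was above basal replicate 4, the lowest basal value, and the log2 fold change was -0.55 (SE 0.15, edgeR adjusted p 0.00540). Acvr2b spanned 4.18 to 13.8 CPM in luminal and 5.42 to 9.58 CPM in basal libraries, and Acvrl1, a type I receptor best known from endothelium, 11.1 to 15.6 CPM in luminal and 13.1 to 21.4 CPM in basal libraries. In neither did the groups stand apart, and Acvr2b (0.33, SE 0.29, edgeR adjusted p 0.328) and Acvrl1 (-0.32, SE 0.18, edgeR adjusted p 0.141), did not pass.

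The type I receptors Bmpr1b and Acvr1c were the luminal receptors of the list, and both were scarce. Bmpr1b was at 5.56, 5.21, 5.27, 13.2 and 4.25 CPM in luminal and 0.0623, 0.0682, 0.155, 1.25 and 0 CPM in basal libraries. It had 0 to 2 counts in the basal libraries other than replicate 4, which had 20, and luminal replicate 4 was likewise the highest of its group. The log2 fold change was 4.39 (SE 0.76, edgeR adjusted p 0.000158), and 6.47 (adjusted p 1.56e-06) without basal replicate 4. Acvr1c was at 2.94, 4.53, 2.76, 3.51 and 3.68 CPM in luminal and 2.06, 1.70, 1.31, 2.44 and 1.56 CPM in basal libraries. The lowest luminal value was just above the highest basal one, and the log2 fold change was 0.94 (SE 0.31, edgeR adjusted p 0.0159). Within the type I receptors per kilobase, Bmpr1a held the largest share in luminal libraries with 45.2% ± 3.96 (SD, n = 5), and Acvr1b in basal libraries with 46.9% ± 2.05 (SD, n = 5). The share of Tgfbr1 was 3.81% ± 0.812 (SD, n = 5) in luminal and 10.8% ± 1.08 (SD, n = 5) in basal libraries, without overlap.

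Bambi, a decoy receptor that lacks the kinase domain, was at 2.56, 3.37, 2.33, 0.686 and 3.61 CPM in luminal and 38.7, 19.5, 16.9, 23.04 and 28.3 CPM in basal libraries. The groups were well separated (-3.31, SE 0.35, edgeR adjusted p 1.56e-06). Both inhibitory SMADs were basal as well. Smad6, which acts mostly against BMP signals, was at 14.99, 7.47, 8.09, 4.73 and 11.98 CPM in luminal and 41.98, 45.6, 46.8, 43.6 and 47.4 CPM in basal libraries. Its basal values were nearly even and its luminal ones were spread out, with a log2 fold change of -2.25 (SE 0.25, edgeR adjusted p 2.16e-06). Smad7, which acts on the TGF-beta branch too, was at 47.1, 60.3, 65.7, 49.6 and 41.3 CPM in luminal and 280.4, 213, 190.2, 149 and 251 CPM in basal libraries. Basal replicate 4 was the lowest of its group but still above every luminal library, and the log2 fold change was -2.04 (SE 0.19, edgeR adjusted p 3.52e-07).

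Among the signal-carrying SMADs, Smad1 and Smad5 of the BMP branch were basal, whereas Smad2 and Smad3 of the TGF-beta branch were not. Smad1 was at 52.2, 42.1, 54.3, 50.6 and 54.8 CPM in luminal and 248, 208, 198, 161 and 211 CPM in basal libraries. It did not overlap between the groups and had a log2 fold change of -2.01 (SE 0.14, edgeR adjusted p 2.32e-08). Smad5 was at 57.4 to 94.5 CPM in luminal and 118 to 141 CPM in basal libraries, and Smad4, the common partner of both branches, at 56.4 to 94.95 CPM in luminal and 97.5 to 177 CPM in basal libraries. Smad5 (-0.77, SE 0.14, edgeR adjusted p 0.000292) and Smad4 (-0.90, SE 0.18, edgeR adjusted p 0.000505) were also basal in every comparison of a luminal with a basal library. Smad9 had 3 counts in the 5 luminal libraries together and 8 to 28 counts in each basal library, too few to pass the filter of the main test. Its groups did not overlap, and its basal mean was at least 5.75-fold higher against 3 counts in each luminal library. Smad2 was at 61.7, 68.2, 72.2, 71.3 and 68 CPM in luminal and 65.5, 57.8, 47.6, 55.1 and 63.5 CPM in basal libraries. The ranges overlapped between 61.7 and 65.5 CPM, and the log2 fold change of 0.24 (SE 0.12) did not pass (edgeR adjusted p 0.109). It passed when libraries were scaled by their totals only (0.43, adjusted p 0.0104) or by upper-quartile factors (0.36, adjusted p 0.0205). Smad3 was at 232, 283, 341, 211 and 206 CPM in luminal and 227, 169, 162, 151 and 233 CPM in basal libraries. These ranges overlapped, and the log2 fold change was 0.43 (SE 0.18) at an edgeR adjusted p of 0.0487, so close to the threshold that it was lost in 5 of the 10 fits that left out a library (luminal replicates 2 and 3, at adjusted p 0.0928 and 0.178, and basal replicates 2, 3 and 4, at 0.116 each). It was also lost under 5 other settings, at adjusted p 0.0575 to 0.111. Per kilobase, Smad3 held 63.3% ± 4.89 (SD, n = 5) of the receptor-regulated SMADs in luminal and 37.2% ± 2.71 (SD, n = 5) in basal libraries, and Smad1 11.5% ± 2.08 (SD, n = 5) and 36.0% ± 2.36 (SD, n = 5), neither of them overlapping. Smad3 had no larger share than Smad1 in basal cells when the longest transcript was used as the length (31.1% against 45.9%).

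The secreted antagonists were basal where they differed, namely 4 of the 5 tested, beside 31.2% of all genes tested that were higher in basal cells. Fst, which encodes follistatin, a protein that traps activins (Entrez 14313, chromosome 13, 114452262 to 114458989), was at 1.31, 3.05, 1.65, 1.07 and 2.15 CPM in luminal and 106, 103, 76.5, 102 and 94.96 CPM in basal libraries. No luminal library exceeded 3.05 CPM, and the log2 fold change was -5.68 (SE 0.25, edgeR adjusted p 3.34e-10). Fstl3, which also binds activins, was at 13.7, 15.99, 11.6, 6.25 and 12.6 CPM in luminal and 68.02, 121, 95.6, 79.3 and 73.7 CPM in basal libraries. The groups did not overlap (-2.86, SE 0.24, edgeR adjusted p 1.28e-07), but 47.3% of the exon bases of Fstl3 are shared with Prss57 on the opposite strand. Fstl1, a more distant relative, was at 1.87, 1.89, 1.84, 1.37 and 5.45 CPM in luminal and 73.9, 139, 131, 86.4 and 85.6 CPM in basal libraries. Luminal replicate 5 was above the other luminal libraries, though far under every basal one, and the log2 fold change was -5.37 (SE 0.36, edgeR adjusted p 1.35e-08). Fibroblasts also make Fstl1, and of their 8 markers Pdgfra and Fbln1 were higher in basal and Dcn in luminal cells. The other 5, Col1a1, Col1a2, Col3a1, Lum and Dpt, did not pass the test and overlapped between the groups. Fbln1 was at 0 to 1.84 CPM in luminal and 23.8 to 65.2 CPM in basal libraries (log2 fold change -5.87, SE 0.53, edgeR adjusted p 2.66e-07). The summed level turned on single genes, as sums computed after the values were seen show. The sum over all 8 overlapped between the groups, as given above. Without Dcn, the other 7 summed to 16.3 to 37.9 CPM in luminal and 50.2 to 100.5 CPM in basal libraries, without overlap. Without Dcn and Fbln1, the other 6 summed to 16.3 to 36.1 and 18.1 to 35.2 CPM and overlapped again. The part of fibroblasts in the Fstl1 difference was not tested.

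Of the BMP antagonists, Nog (noggin) had 0 to 12 counts in luminal and 14 to 113 in basal libraries, and was at 0.187, 0, 0.735, 0.686 and 0 CPM and 7.04, 3.07, 2.09, 0.874 and 2.93 CPM. The log2 fold change of -3.33 (SE 0.83, edgeR adjusted p 0.00286) passed the threshold with a wide error, and it was -3.97 (adjusted p 0.00257) without luminal replicate 3, the highest luminal library. Chrd (chordin) had 0 to 41 counts in luminal and 8 to 30 in basal libraries and did not pass (0.43, SE 0.70, edgeR adjusted p 0.606). Grem1 (gremlin) had no counts in any library, which allows up to 3 counts in a library. For genes this low a smaller difference may not have been detectable here, and the parts of depth and of the spread between libraries were not tested.

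The latent TGF-beta binding proteins, large matrix proteins that hold latent TGF-beta, were divided between the cell types as the Id genes were. Ltbp1 (Entrez 268977, chromosome 17, 75005480 to 75392512) was at 291, 163, 206, 140.3 and 182 CPM in luminal and 18.8, 19.8, 18.9, 22.5 and 16.7 CPM in basal libraries. Its lowest luminal library was far above its highest basal one, and the log2 fold change was 3.34 (SE 0.20, edgeR adjusted p 3.80e-09). Ltbp4 (Entrez 108075, chromosome 7, 27305140 to 27339720) was at 3.25, 5.16, 3.19, 2.06 and 5.70 CPM in luminal and 123, 165, 140.3, 132 and 133 CPM in basal libraries. It was scarce in every luminal library (-5.15, SE 0.25, edgeR adjusted p 5.79e-10). Ltbp2, the family member that does not bind latent TGF-beta itself, was at 37.04, 26.8, 28.9, 20.1 and 31.9 CPM in luminal and 565, 608, 469.9, 205 and 512 CPM in basal libraries. Basal replicate 4 was the lowest basal library and still above every luminal one, with a log2 fold change of -4.03 (SE 0.28, edgeR adjusted p 2.01e-08). Of the exon bases of Ltbp2, 9.34% are shared with D030025P21Rik on the opposite strand. Ltbp3 was at 442, 470.5, 419, 309.9 and 390.5 CPM in luminal and 332, 446, 423, 354 and 386 CPM in basal libraries, and these ranges lay over each other (0.07, SE 0.15, edgeR adjusted p 0.716). Per kilobase, Ltbp3 took 66.8% ± 4.54 (SD, n = 5) of the family in luminal libraries and 35.3% ± 6.06 (SD, n = 5) in basal ones, while the share of Ltbp1 was 27.0% ± 4.36 (SD, n = 5) and 1.53% ± 0.507 (SD, n = 5) and that of Ltbp2 5.24% ± 0.562 (SD, n = 5) and 45.4% ± 9.82 (SD, n = 5). Ltbp4 held 0.889% ± 0.333 (SD, n = 5) and 17.7% ± 3.38 (SD, n = 5). Genes with many short exons may be counted too low by an aligner that does not cross splice junctions. Ltbp1 has 37 merged exons, and Ltbp2 and Ltbp4 have 35 each. Such a loss bears on levels between genes, and its effect on a gene compared between the cell types was not tested.

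Levels per kilobase of merged exon set the members in order within each cell type. The order was not examined with the longest transcript as the length and may differ there. That transcript is shorter than the merged exons for Ltbp3 (5729 against 9069 bases), Id3 (1278 against 1791 bases) and Smad3 (5090 against 5542 bases). In luminal cells Inhbb was followed by Smad3 at 45.9 ± 10.3, Ltbp3 at 44.8 ± 6.76, Id3 at 39.5 ± 8.63 and Tgfb3 at 26.3 ± 14.8 CPM per kilobase, and neighbours among these 4 lay within their spread of each other, below Inhbb. In basal cells Gdf15 came first at 139 ± 29.5 CPM per kilobase, followed by Id4 at 81.4 ± 8.71, Acvr1b at 67.5 ± 7.73, Tgfbr3 at 66.2 ± 2.84 and Ltbp2 at 57.7 ± 19.3 CPM per kilobase. Acvr1b, Tgfbr3 and Ltbp2 lay within their spread of each other, while Gdf15 was above Id4, and Id4 above Acvr1b, by more than the SD of either.

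Other genes of the pathway, outside the 48, leaned to basal cells as well. Of 103 further genes found in the count table, 74 were tested, of which 41 (55.4%) were higher in basal and 10 (13.5%) in luminal cells, beside 31.2% and 33.6% of all genes tested, and 23 did not pass. Their median log2 fold change was -0.52. Intracellular modulators, such as ubiquitin ligases and SMAD corepressors, had 15 of 24 in the basal and 2 in the luminal direction. These differences were small, with none of the 24 at 4-fold and a median log2 fold change of -0.46. Target genes had 10 of 18 basal and 4 luminal. Genes of latent complex storage and activation had 7 of 13 basal and 2 luminal, other antagonists 5 of 10 and 1, other ligands 3 of 5 and 0, and other receptors 1 of 4 in each direction. The target list shares Jun and Junb with the dissociation genes above, and Col1a1 of the targets and Dcn of the antagonists with the fibroblast markers.

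**Figure D4:**
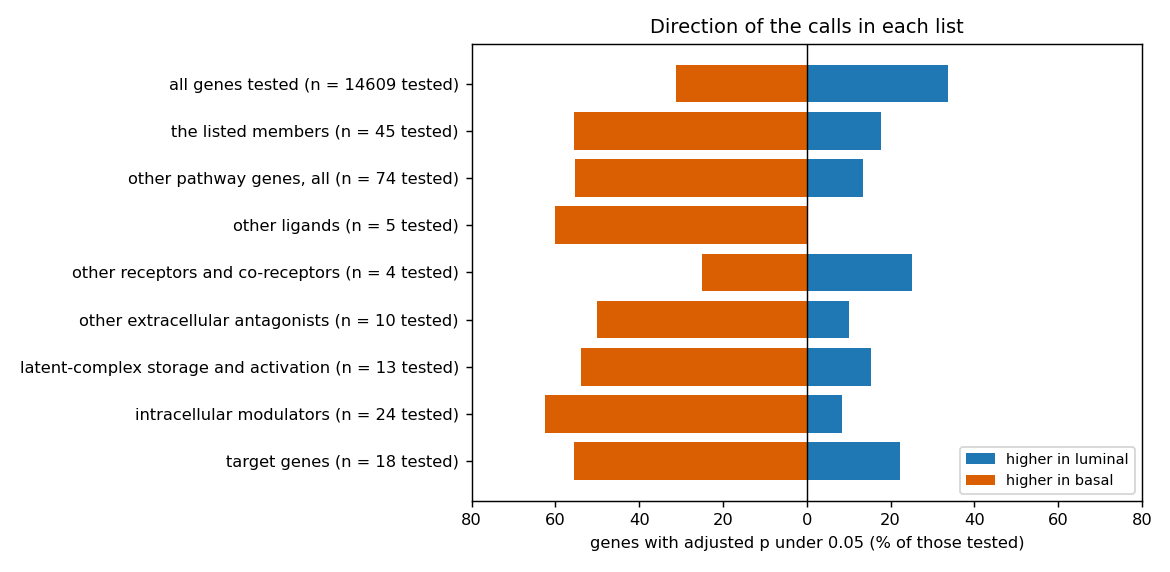
Percentage of tested genes that edgeR called at a threshold of 0.05, in the luminal (blue, right) and basal (orange, left) direction, for all 14609 genes, the 45 members and the lists of other pathway genes. The orange bar is longer than the blue one in every list except the other receptors and all genes, at 55.6% against 17.8% for the members and 31.2% against 33.6% for all genes.

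The largest luminal differences in this wider list belonged to Msx2 and Hes1, transcription factors that can respond to BMP signals, Itgb6, the subunit of an integrin that activates latent TGF-beta, and Cdkn2b, a cell cycle inhibitor induced by TGF-beta. Msx2 had a mean of 70.3 ± 25.6 CPM (SD, n = 5) in the luminal group and 0.994 ± 0.686 CPM (SD, n = 5) in the basal group (log2 fold change 6.11, SE 0.43, edgeR adjusted p 1.98e-08). Hes1, which Notch signalling also drives, was at 141 ± 31.2 CPM (SD, n = 5) and 13.8 ± 2.24 CPM (SD, n = 5) (3.36, SE 0.18, edgeR adjusted p 1.96e-09). Itgb6 was at 17.9 ± 2.64 CPM (SD, n = 5) and 2.19 ± 1.16 CPM (SD, n = 5) (3.02, SE 0.35, edgeR adjusted p 4.02e-06), and Cdkn2b at 5.44 ± 2.61 CPM (SD, n = 5) and 0.841 ± 0.730 CPM (SD, n = 5) (2.67, SE 0.63, edgeR adjusted p 0.00198). Among the largest basal differences were those of Atoh8, Col4a1 and Fbn1. Atoh8, a transcription factor that responds to BMP, had no counts in any luminal library and a basal mean of 10.8 ± 3.88 CPM (SD, n = 5), which is at least 57.1-fold higher against 3 counts in each luminal library (edgeR adjusted p 3.55e-07). Col4a1, a basement membrane collagen, averaged 10.4 ± 3.10 CPM (SD, n = 5) in the luminal group and 794 ± 186 CPM (SD, n = 5) in the basal group (-6.25, SE 0.26, edgeR adjusted p 2.28e-10). The microfibril gene Fbn1 was at 1.08 ± 0.543 CPM (SD, n = 5) and 35.2 ± 9.10 CPM (SD, n = 5) (-5.00, SE 0.31, edgeR adjusted p 7.30e-09). None of these 7 genes overlapped between the groups.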

How the data were processed

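RNA-seq was measured in 5 luminal and 5 basal libraries. The authors deposited whole-number read counts per gene without normalization. Per the study's methods, adapters were removed with cutadapt and single-end reads were aligned to mm10 with bowtie2. The submitters' processing notes name cutadapt 4.2, Bowtie2 2.3.5.1 and the builds mm10 and hg19. The counting tool, its annotation and its use of strand are not given in the sources used here, so overlapping genes cannot be told apart, and reads over a splice junction are not aligned by bowtie2. The study describes fewer replicates for its RNA-seq than are present here, and the steps above were assumed to apply to these libraries.

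Entrez identifiers were matched to symbols of RefSeq GRCm38.p6 for 24570 of 24594 genes. Genes were filtered with filterByExpr (minimum count 10, minimum total count 15), which left 14609, and 37 of the 45 members tested reached its limit of 0.651 CPM in every library of both groups. Bmp3 and Bmpr1b did so in all luminal libraries only, Bmp6, Inhba, Id4 and Nog in all basal libraries only, and Bmp4 and Chrd in neither group. Luminal and basal libraries, grouped by the cell type label, were compared with edgeR 4.0.16 (R 4.3.3, TMM factors, quasi-likelihood test, cell type as the only term), with Benjamini-Hochberg adjustment over all genes tested. The SE was taken from the log2 fold change and the F statistic (its absolute value over the root of F). Exon lengths and overlaps come from merged GENCODE exons.

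All members were named. Of the other pathway genes, those with the 4 largest log2 fold changes in each direction were named, among those called at 0.05 that had a mean of 1 CPM or more in the group where they are higher and a constant direction in all 5 same-numbered pairs. One of them is not reported here. The members and lists were chosen with earlier results of these data known. One listed gene, Lrrc33, is an older name of Nrros and was counted once, and Hbb-bs and Hba-a2 of the erythroid markers were not matched. Alternatives were DESeq2 1.42.0 and its size factors, upper-quartile factors, library totals only, no filter, at least 10 counts in every library, limma 3.58.1 (voom), thinning, the replicate number as a block, a test against a 2-fold change and leaving out each library.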

Additional observations from a re-analysis of the deposited data

Results flagged for a closer look

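In groups of 5 libraries, the CPM of each member and of the 8 other genes chosen by the naming rule was examined with Dixon's test for a library that stands apart. Left out were 4 groups in which no library had over 3 counts, namely Grem1 in both cell types and Smad9 and Atoh8 in luminal cells. Of the 108 groups tested, 7 held such a library, where chance gives about 5.4, since about 1 group in 20 is expected. Basal replicate 4 held 3 of the 7. It had the highest Bmp4 value of its group (3.997 CPM against 0 to 1.09 in the other basal libraries) and the highest Bmpr1b value (1.249 CPM against 0 to 0.155), and the lowest Bmpr2 value (125.4 CPM against 156 to 168). Bmp6 was at 4.983 CPM in basal replicate 1 against 1.86 to 2.32 CPM in the others, and Chrd at 2.044 CPM in basal replicate 2 against 0.539 to 0.81 CPM. Among luminal libraries, Bmpr1b was at 13.19 CPM in replicate 4 against 4.25 to 5.56 CPM, and Fstl1 at 5.451 CPM in replicate 5 against 1.37 to 1.89 CPM. No explanation of these values was tested.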

How the results depend on the processing

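Members higher in luminal cells numbered 5 instead of 8 under a filter of 10 counts or more per library, which left 36 members tested. They also numbered 5, of 45 tested, in the test against a 2-fold change. Over all genes, 1913 of 14609 were higher in luminal cells in the 2-fold test, and 4055 of 12127 under that filter. With the same filter 6 instead of 10 other pathway genes were higher in luminal cells, of 56 tested. The other counts stayed within 1.5 times, but other pathway genes were not counted in the test against a 2-fold change. Without a filter 47 members were tested, of which 7 were luminal and 26 basal, beside 4966 and 5089 of the 20612 genes tested there. Leaving out each library gave 4625 to 5012 luminal and 4251 to 4612 basal calls over all genes. Among the members it gave 7 to 9 luminal and 25 to 27 basal, and in the other pathway list 10 to 12 luminal and 39 to 42 basal genes. Library totals only, which shifted the median of all genes by 0.19, gave 15 luminal and 33 basal genes of that list in place of 10 and 41, and upper-quartile factors (shift 0.122) 14 and 37. The calls over all 14609 genes tested moved the same way, from 4904 luminal and 4558 basal. They were 5702 and 3705 with library totals only, and 5439 and 4051 with upper-quartile factors. Of 993 alternative values of single genes, 965 had an unchanged direction and stayed on the side of the threshold reported. The direction changed for 3 genes that did not pass, Tgfbr2 (-0.0305 with DESeq2 and with its size factors, -0.0592 without a filter, -0.0156 with at least 10 counts, -0.0121 with voom, -0.0114 with the block, and -0.0689 to 0.0729 when a library was left out), Bmp4 (0.0775 with voom) and Chrd (-0.265 with voom). Smad3 lost its call with DESeq2 (adjusted p 0.0651) and its size factors (0.0739), without a filter (0.111), with at least 10 counts (0.0575) and with the block (0.0714). Without a library it was between 0.283 and 0.522. Among called genes, the log2 fold change moved by over 1.5 times for Bmpr1b (5.34 with voom and 5.06 with the block, against 4.39), Nog (-4.06 with voom and -3.97 without luminal replicate 3, against -3.33) and Cdkn2b (3.44 with voom, against 2.67), and for Bmpr1b without basal replicate 4 as given above. It also moved for Atoh8 (-8.34 with voom), which is near 0 in luminal libraries. The leading gene of a family, per kilobase, was the same with undivided counts and with the longest transcript in 13 of 16 cases. It was not for basal type II receptors, receptor-regulated SMADs and LTBPs. Of the alternative values of single shares, 60 moved and 430 did not. With undivided counts, the basal share of Id3 was 4.57% against 8.82%, and the luminal share of Id4 1.14% against 0.589%. The luminal share of Bmp7 was 2.9% against 4.58%, and the basal share of Bmp3 0.119% against 0.0633%.

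With the replicate number as a block, 7 luminal and 25 basal members and 10 and 41 other pathway genes were called, and 9278 instead of 9462 of all genes. Same-numbered luminal and basal libraries also share the leading number of their library description, which is not a running count, but the labels do not say whether it marks an animal. Their deviations from the group means correlated at -0.134 to 0.252 (mean 0.0442, against -0.00718 for other numbers), and 2 luminal and 1 basal library correlated best with their own number. Counts were low for Bmp2, Bmp4, Bmp5, Inhba, Smad9, Id1, Chrd and Nog, and smaller differences in them may not have been detectable. Whether depth or the spread between libraries limits their precision was not tested.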
